A study of Caenorhabditis elegans with 3 samples.

Results

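The genes described here encode subunits of condensin and cohesin in Caenorhabditis elegans embryos. They were chosen by name and are 10 of the 46148 gene identifiers in the deposited RNA-seq table: the condensin genes smc-4, hcp-6, kle-2 and capg-2, and the cohesin genes smc-1, smc-3, scc-1, scc-3, coh-1 and rec-8. All 10 were found, smc-1 under the symbol him-1, its name in the annotation. Of these, 6 had a row of the table to themselves and 4 shared a row with neighbouring genes.

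Poly(A) RNA was sequenced from embryos of 3 genotypes. The DCC mutant (strain TY0810, genotype sdc-2(y93, RNAi), 3 replicates) combines an sdc-2 mutation with feeding of sdc-2 RNAi bacteria; the SDC-2 protein recruits the dosage compensation complex (DCC) to X in XX embryos, where the complex reduces transcription. The 8rex deletion (strain TY5827, 5 replicates) lacks 8 sites at which that complex is recruited to X, namely rex-8(y737), rex-14(y738), rex-32(y572), rex-33(y743), rex-35(y740), rex-43(y741), rex-47(y671) and rex-48(y742), and was grown on bacteria with the empty vector pL4440. Wild type (strain N2, 5 replicates) was grown on the same empty vector, and the bacteria of all 3 genotypes were HT115. Embryos were of mixed stages in 2 replicates of every genotype, and skewed to older embryos in 1 further replicate of the DCC mutant, 3 of the 8rex deletion and 3 of wild type; mixed-stage embryos were mostly younger than the comma stage. The older embryos came from adults taken 68 to 70 h after the L1 larvae were plated and were left for 7 to 8 h at 20 °C. Most of them were at the 3-fold stage, when most cell divisions of embryogenesis are over. Older embryos thus made up 33.3% of the DCC mutant replicates and 60% of the replicates of the 8rex deletion and of wild type, so that stage and genotype cannot be told apart in any DCC mutant comparison.

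Condensin and cohesin are ring-shaped complexes built on a pair of SMC ATPases whose heads are bridged by a kleisin protein, to which HEAT-repeat subunits bind. Condensin compacts chromosomes for mitosis and meiosis, and cohesin holds sister chromatids together and extrudes loops of interphase chromatin. C. elegans has condensin I, condensin II and a dosage compensation condensin; the last is part of the DCC and differs from condensin I by having DPY-27 in place of SMC-4. The subunit MIX-1 is common to all of them. Different kleisins give cohesin different roles in the worm: SCC-1 serves mitosis, REC-8 serves meiosis together with COH-3 and COH-4, and COH-1 acts in somatic cells, including cells that no longer divide.

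The deposited values are FPKM (fragments counted per kilobase of transcript and adjusted for library size), which corrects for transcript length, so levels can be set side by side between genes. The replicates of a genotype had been combined before deposit, so every genotype has a single value, no value has a standard deviation, and the number of reads is unknown. Differences are on the log2(FPKM + 1) scale, except for log2 fold changes quoted from the authors, which have no added constant. The log2(FPKM + 1) scale understates the change of low genes, the more so the lower their level. No test was made here: the p and q quoted are those of the authors' deposited table, which compares each mutant with wild type. In whole embryos a lower value can come from fewer cells that express a gene or from less RNA per cell, and these cannot be told apart. The targeted gene sdc-2 had, in the authors' deposited table, 11 FPKM in the DCC mutant and 16 FPKM in the 8rex deletion, against 18 FPKM in wild type (p = 0.5053 for the DCC mutant). Transcripts of the 6 vitellogenin genes, which the adult gut makes, were under 1 FPKM in every genotype, and vit-4 was listed at 0 in the DCC mutant and wild type.

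All 10 genes passed the filter of a mean of 1 FPKM, as did 15628 rows of the table. Their mean levels ran from 12.2 FPKM for the row of rec-8, at percentile 47.6 of those rows, to 273 FPKM for the row shared by smc-4, at percentile 96.9. The genes lie on every chromosome: smc-4, kle-2 and smc-3 on III, hcp-6 and smc-1 on I, capg-2 and scc-3 on V, scc-1 on II, rec-8 on IV, and coh-1 on X. Their longest annotated proteins ranged from 597 residues for the kleisin COH-1 to 1758 residues for the HEAT-repeat protein HCP-6. Within the kleisins the lengths were 597 residues for COH-1, 645 for SCC-1, 781 for REC-8 and 821 for KLE-2, and the SMC proteins were longer, at 1205 residues for SMC-3, 1262 for SMC-1 and 1549 for SMC-4.

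**Figure D1:**
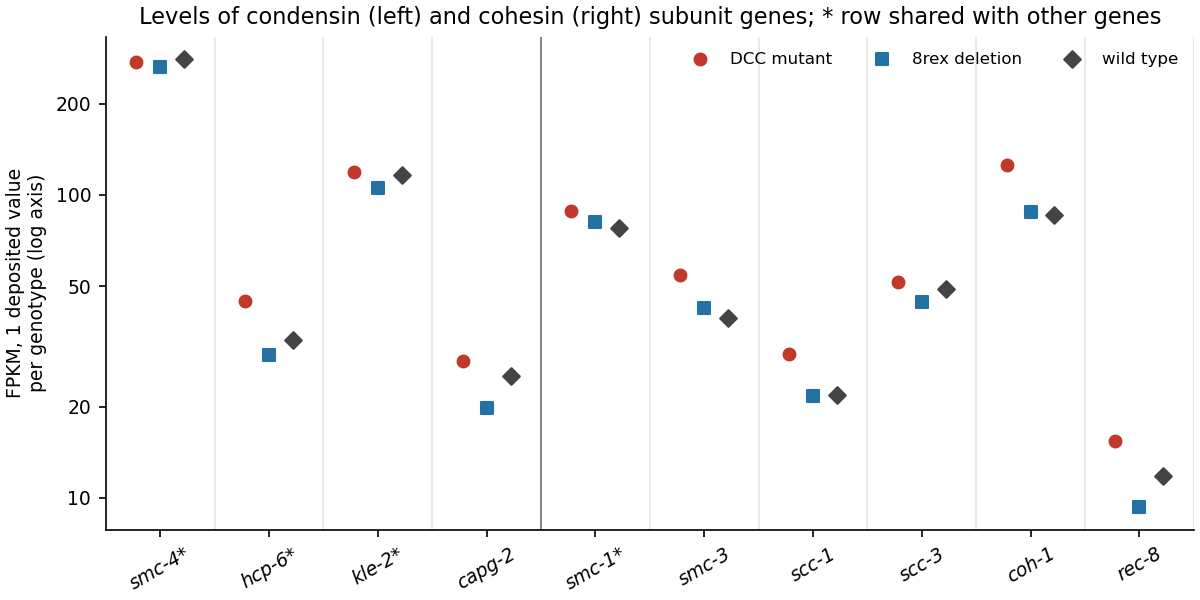
Level of each subunit gene as the single deposited FPKM value per genotype, on a log axis, with the DCC mutant (red circles), 8rex deletion (blue squares) and wild type (grey diamonds) from left to right within each gene; there are no error bars because replicates were combined before deposit. The DCC mutant point is the highest of the 3 for every gene except smc-4, and names with an asterisk mark rows shared with other genes.

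The rows of 4 members cover other genes too, and this bears most on condensin. smc-4 (WBGene00004874, protein-coding, ce11 III, 4587501 to 4593124, plus strand) shared its row with 4 other coding genes of the same strand. They are pan-1, a leucine-rich-repeat gene, wdr-48, a WD-repeat gene, F35G12.12 and erh-2, the homologue of enhancer of rudimentary, which begins 106 bp after the end of smc-4. kle-2 (WBGene00016202, III, 7941717 to 7945593, plus strand) was counted with ran-2, the Ran GTPase-activating protein gene, and with C29E4.12, which ends 102 bp before it. hcp-6 (WBGene00001833, I, 5165148 to 5171313, plus strand) was counted with trf-2, which ends 6647 bp before it. smc-1 (WBGene00001860, annotated as him-1, I, 4951571 to 4957667, minus strand) was counted with F28B3.6, which lies 89 bp beyond its 3′ end. No partner overlapped its member, all lay on the member's strand, and the share of any gene in the row's FPKM is not known. Worm genes on the same strand and as close as erh-2, C29E4.12 and F28B3.6 are to their members are often transcribed as operons. Whether these are was not tested. The other partners lay farther off: F35G12.12 at 3607 bp, wdr-48 at 5803 bp and pan-1 at 21217 bp from smc-4, ran-2 at 4008 bp from kle-2, and trf-2 as given above.

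**Figure D2:**
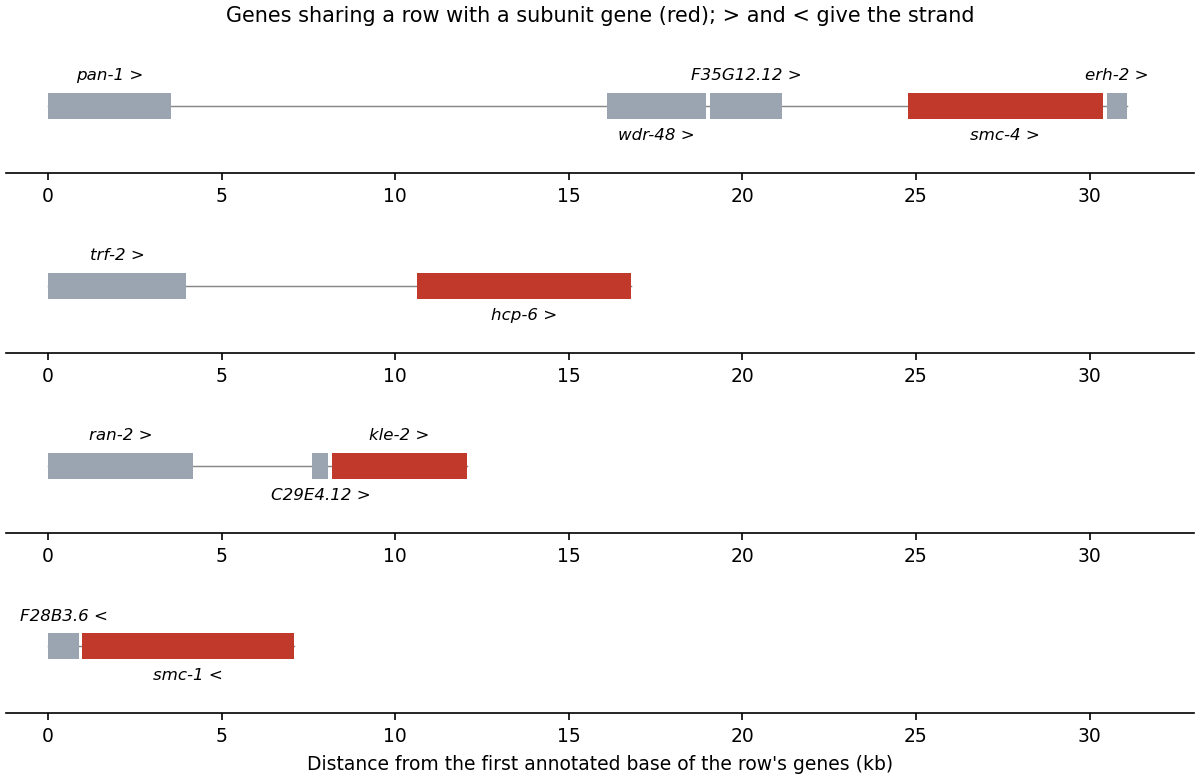
Genes that share a row with smc-4, hcp-6, kle-2 and smc-1, drawn to scale as annotated spans in kb from the first annotated base of the row's genes; the subunit gene is red, the others are grey, and the arrowheads give the strand. The row of smc-4 holds 5 genes and the row of kle-2 holds 3, whereas the rows of hcp-6 and smc-1 hold 2 each.

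Among the condensin genes, the row of smc-4, which encodes the SMC ATPase that pairs with MIX-1 in condensins I and II, stood at 274 FPKM in the DCC mutant and 265 FPKM in the 8rex deletion, against 281 FPKM in wild type. The 3 genotypes were close, the DCC mutant at 0.976 times and the 8rex deletion at 0.943 times the wild-type level. The row of kle-2, the kleisin gene of condensin II, stood at 118.7 FPKM in the DCC mutant and 105 FPKM in the 8rex deletion, against 116 FPKM in wild type. Both rows are shared, and the DCC mutant differed from wild type by -0.03 for smc-4 and 0.03 for kle-2 on the log2 scale.

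The rows of the HEAT-repeat genes of condensin II showed wider differences. That of hcp-6 is shared with trf-2, so its values, like those of smc-4 and kle-2, are not of 1 gene alone. The row of hcp-6 stood at 44.7 FPKM in the DCC mutant and 29.7 FPKM in the 8rex deletion, against 33.1 FPKM in wild type, so the DCC mutant was 1.35 times wild type and the 8rex deletion was 0.898 times wild type. capg-2 (WBGene00010093, V, 12271873 to 12275658, plus strand), the condensin gene with a row of its own, stood at 28.2 FPKM in the DCC mutant and 19.8 FPKM in the 8rex deletion, against 25.2 FPKM in wild type. The 8rex deletion value of capg-2 was 0.786 times wild type, the widest difference in that comparison among the 10 genes. In the authors' deposited table its log2 fold change was -0.35 with p = 0.4417 in the 8rex deletion, and 0.17 with p = 0.7493 in the DCC mutant. For hcp-6 the authors' deposited table gave 0.43 with p = 0.62025 in the DCC mutant and -0.16 with p = 0.8276 in the 8rex deletion.

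Of the SMC genes of cohesin, smc-3 (WBGene00004873, III, 11290904 to 11306247, plus strand) had a row of its own and stood at 54.6 FPKM in the DCC mutant and 42.2 FPKM in the 8rex deletion, against 39.2 FPKM in wild type. The DCC mutant was thus 1.39 times wild type, and the p of 0.3542 in the authors' deposited table was the smallest of any member in either comparison. The row of smc-1 stood at 88.4 FPKM in the DCC mutant and 81.2 FPKM in the 8rex deletion, against 77.9 FPKM in wild type. SMC-1 and SMC-3 pair in every cohesin. Both rows were in the same order, the DCC mutant above the 8rex deletion and the 8rex deletion above wild type. The row of coh-1 had this order too, whereas those of scc-1, scc-3 and rec-8 did not. For smc-1, whose row also covers F28B3.6, the span of differences was narrower than for smc-3 (1.14 times wild type in the DCC mutant).

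scc-3 (WBGene00004738, V, 12763945 to 12767933, plus strand), the gene of the HEAT-repeat subunit of cohesin, stood at 51.5 FPKM in the DCC mutant and 44.2 FPKM in the 8rex deletion, against 49 FPKM in wild type. Of the genes with rows of their own it was the nearest to wild type in the DCC mutant, at 1.05 times, with p = 0.85725 in the authors' deposited table.

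The kleisin genes of cohesin all had rows of their own. scc-1 (WBGene00004737, II, 4698721 to 4700994, plus strand), the mitotic kleisin gene, stood at 29.8 FPKM in the DCC mutant and 21.7 FPKM in the 8rex deletion, against 21.8 FPKM in wild type. coh-1 (WBGene00000591, X, 7465193 to 7475018, minus strand) stood at 125 FPKM in the DCC mutant and 88 FPKM in the 8rex deletion, against 85.6 FPKM in wild type. rec-8 (WBGene00004333, IV, 13349122 to 13353193, minus strand), the meiotic kleisin gene, stood at 15.4 FPKM in the DCC mutant and 9.31 FPKM in the 8rex deletion, against 11.8 FPKM in wild type. For scc-1 and coh-1 the 8rex deletion and wild type nearly coincided and the DCC mutant stood apart from both, whereas for rec-8 the 8rex deletion was the lowest.

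The meiotic kleisin genes coh-3 and coh-4, which are not among the 10, complete the set and were low. coh-3 stood at 6.11 FPKM in the DCC mutant and 3.5 FPKM in the 8rex deletion, against 3.54 FPKM in wild type, and coh-4 at 3.36 FPKM in the DCC mutant and 2.56 FPKM in the 8rex deletion, against 2.66 FPKM in wild type. Summed over scc-1, coh-1, rec-8, coh-3 and coh-4, cohesin kleisin transcripts came to 180 FPKM in the DCC mutant and 125 FPKM in the 8rex deletion, against 125 FPKM in wild type. The make-up of that sum varied little between genotypes. coh-1 was 69.6% of it in the DCC mutant, 70.3% in the 8rex deletion and 68.3% in wild type, and scc-1 was 16.6%, 17.4% and 17.4% in the same order. rec-8 made up 8.56% in the DCC mutant, 7.45% in the 8rex deletion and 9.4% in wild type. Transcript of coh-1 was 4.2 times that of scc-1 in the DCC mutant, 4.05 times in the 8rex deletion and 3.93 times in wild type.

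Among the 6 genes with rows of their own, coh-1 had the highest level and rec-8 the lowest in each genotype, and the highest was 8.13 times the lowest in the DCC mutant, 9.44 times in the 8rex deletion and 7.26 times in wild type. Between them the order changed with genotype: smc-3 stood above scc-3 in the DCC mutant and below it in the 8rex deletion and wild type, and scc-1 stood above capg-2 in the DCC mutant and 8rex deletion and below it in wild type. With 1 value per genotype there is no spread against which to judge these neighbouring positions.

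Set against wild type, the DCC mutant was higher at 9 of the 10 rows, the exception being smc-4 at -0.03 on the log2 scale. With genotypes scaled to the same median ratio over autosomal rows, smc-4 also came out above 0 (0.01). For comparison, 48% of all rows kept, 42.8% of the autosomal ones and 52.4% of rows with a single gene that is coding were above 0. The median difference over the 10 rows was 0.27, with a range of -0.03 to 0.54, against a median of 0.00 over all rows kept and -0.04 over the autosomal rows. On the autosomes 8 of 9 members were above 0, and hcp-6, smc-3, scc-1 and rec-8 (0.42, 0.47, 0.44 and 0.36) lay above the interquartile range of autosomal rows, which ended at 0.25. Over the 6 rows that hold a single gene the median was 0.40, and over the 6 cohesin rows it was likewise 0.40, against 0.09 over the 4 condensin rows, of which 3 are shared. No member was 1.5-fold higher or lower than wild type, a size reached by 36% of all rows kept. With the scaling by median ratio, 1 member, coh-1, was. Of the 10837 rows kept with a single gene that is coding, 1901 were 1.5-fold higher and 1504 were 1.5-fold lower, a smaller share. The rows kept also reach lower levels than the members, 47.6% of them being below rec-8.

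None of the 10 had a p under 0.05 in the authors' deposited table in either comparison. No tested row of the whole table had a q under 0.05 there, the smallest q being 0.0632 in both comparisons. Every p under 0.05 given here for other genes is thus one without a q under 0.05. In the DCC mutant comparison of the authors' deposited table, the p of the members ran from 0.3542 to 0.966 with a median of 0.821, every q was 0.999938, and 2.07% of the 9509 tested rows had a p under 0.05. Among 6863 tested rows between 12.2 and 273 FPKM, the smallest fold change with a p under 0.05 was 1.68, and none of the 5236 rows with a log2 fold change no larger than that of coh-1 (0.55) had such a p in the authors' deposited table. The differences given here are values of these pools, with no replicate check.

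**Figure D3:**
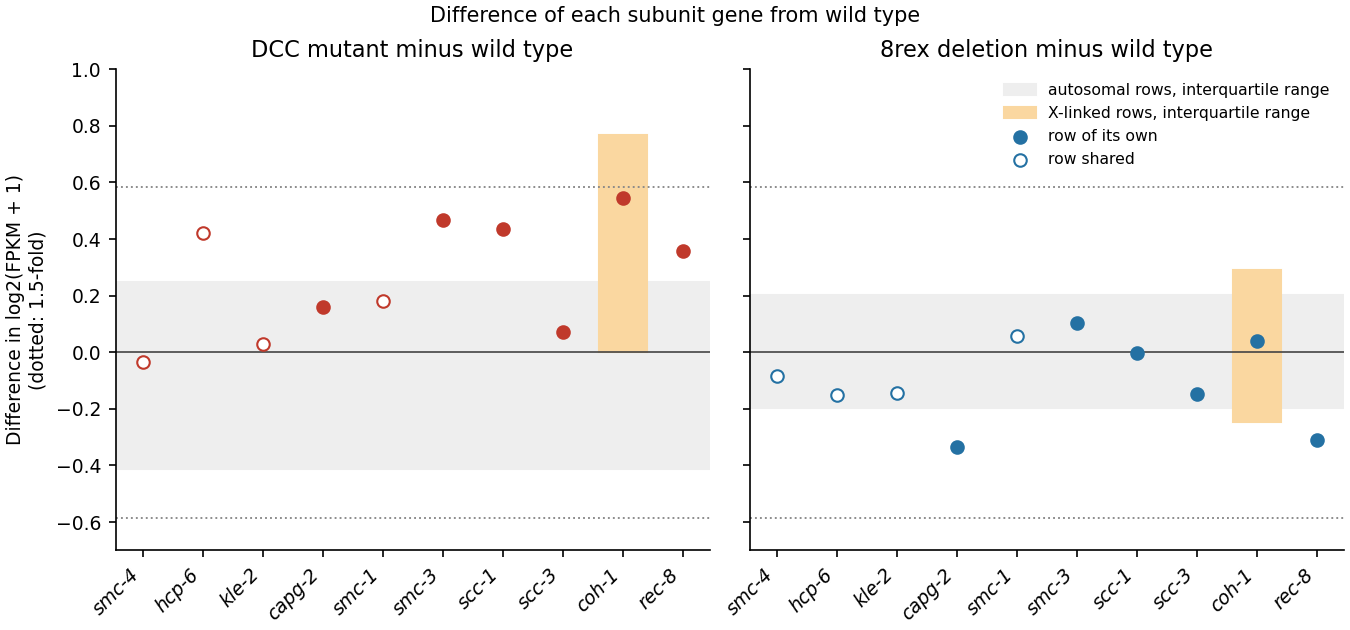
Difference of each subunit gene from wild type in log2(FPKM + 1), for the DCC mutant (left) and the 8rex deletion (right); filled points are rows of a single gene, open points are shared rows, dotted lines mark 1.5-fold, the grey band is the interquartile range of autosomal rows and the orange box that of X-linked rows. In the DCC mutant the points run from -0.03 to 0.54 and coh-1 lies inside the X-linked box, while in the 8rex deletion they run from -0.33 to 0.10.

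coh-1 is the X-linked member and had the largest difference of the 10 in the DCC mutant, 0.54 on the log2 scale or 1.46 times wild type (log2 fold change 0.55 and p = 0.5 in the authors' deposited table). The median over 1782 X-linked rows with a single coding gene was 0.56 (interquartile range 0.29 to 0.79), and 48.5% of those rows were below coh-1. In the 8rex deletion coh-1 was 1.03 times wild type, a difference of 0.04, against a median of -0.04 over the same X-linked rows. Without coh-1, the median over the 9 autosomal members was 0.18 in the DCC mutant and -0.14 in the 8rex deletion.

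In the 8rex deletion, 7 of the 10 rows were below wild type and 3, smc-1, smc-3 and coh-1, were above it. With the scaling by median ratio scc-1, at -0.004 as deposited, came out above 0 as well. Of all rows kept, 50.5% were below 0 and 47.6% above. The median over the members was -0.11, between -0.33 for capg-2 and 0.10 for smc-3, against -0.003 over all rows kept, and all 4 condensin rows were below 0 while the cohesin rows were split 3 and 3. No member differed 1.5-fold, against 24.3% of rows kept. Of the 10837 rows kept with a single gene that is coding, 845 were 1.5-fold higher and 697 were 1.5-fold lower, a smaller share. The members' p ran from 0.4417 to 0.9979 in the authors' deposited table, where 0.459% of 9378 tested rows had a p under 0.05 and the smallest such fold change at these levels was 1.85.

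Both comparisons use the same wild-type value, so their differences are not independent. Set directly against each other, a comparison that the authors' deposited table does not make, the DCC mutant was above the 8rex deletion at all 10 rows, as it was at 48.3% of all rows kept. The median difference was 0.40. It was smallest for smc-4 (0.05) and largest for rec-8 (0.67, or 1.65 times), the only member past 1.5-fold on the log2(FPKM + 1) scale. That size was reached by 39.6% of all rows kept. Of the 10837 rows kept with a single gene that is coding, 2092 were 1.5-fold higher and 1642 were 1.5-fold lower, a smaller share. Next to rec-8 came hcp-6, with 0.57, or 1.503 times by the ratio of FPKM.

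**Figure D4:**
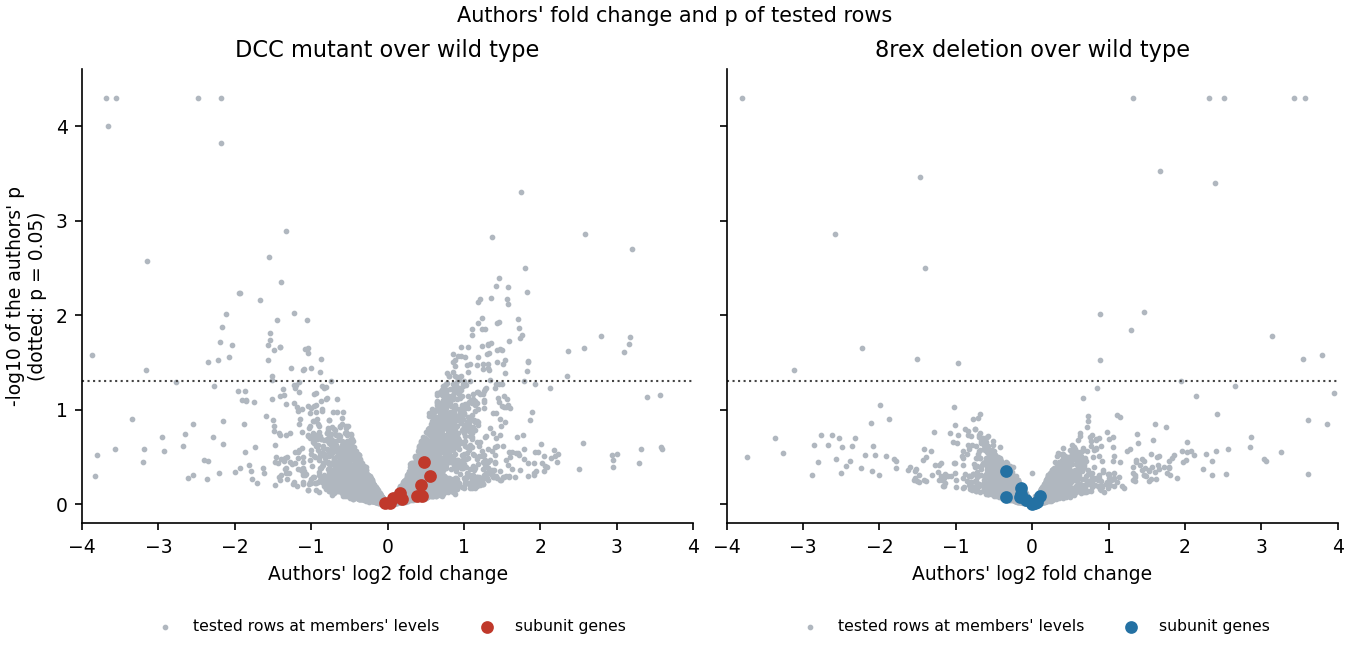
The log2 fold change and the -log10 of the p in the authors' deposited table for rows tested at levels of 12.2 to 273 FPKM (grey) and for the 10 subunit genes (coloured), in the DCC mutant (left) and the 8rex deletion (right); the dotted line is p = 0.05, and 9 rows on the left and 7 on the right lie beyond the x axis. All subunit genes lie below the dotted line, with p of at least 0.3542 on the left and 0.4417 on the right.

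Genes that work with these complexes were listed by function to place the members. The lists, like the members, were chosen with earlier results of these data known. Among the other condensin genes, 4 rows hold a single coding gene, and in the DCC mutant 1 of them was above wild type and 3 below (median -0.07). MIX-1, the SMC protein common to all condensins, had transcript at 71 FPKM in the DCC mutant and 61.3 FPKM in the 8rex deletion, against 66.7 FPKM in wild type. dpy-27, the counterpart of smc-4 in dosage compensation, stood at 107 FPKM in the DCC mutant and 110 FPKM in the 8rex deletion, against 115.5 FPKM in wild type, and dpy-28, the HEAT-repeat counterpart of hcp-6, at 28.5 FPKM, 28.7 FPKM and 29.1 FPKM in the same genotypes. The HEAT-repeat gene capg-1 is in a shared row at 555 FPKM in the DCC mutant and 474 FPKM in the 8rex deletion, against 548 FPKM in wild type. The kleisin gene dpy-26 is in a shared row at 74.8 FPKM in the DCC mutant and 72.8 FPKM in the 8rex deletion, against 74.5 FPKM in wild type, and also had a row of its own at 7.78 FPKM in the DCC mutant and 8.64 FPKM in the 8rex deletion, against 13.7 FPKM in wild type. None of these rows had a p under 0.05 in the authors' deposited table.

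The cohesin partners had rows of a single coding gene for 9 genes, of which 8 were above wild type in the DCC mutant and 3 in the 8rex deletion. Of all rows kept, 48% were above 0 in the DCC mutant and 47.6% in the 8rex deletion. The medians of the partners were 0.34 and -0.04, and none had a p under 0.05 in the authors' deposited table in either comparison. ify-1, the securin that holds separase inactive until anaphase, stood at 169 FPKM in the DCC mutant and 82.8 FPKM in the 8rex deletion, against 75.6 FPKM in wild type (in the authors' deposited table, p = 0.5144 for the DCC mutant). sep-1, the separase gene, stood at 13.7 FPKM in the DCC mutant and 9.7 FPKM in the 8rex deletion, against 10.6 FPKM in wild type. The gene of the loading factor mau-2 stood at 19.8 FPKM in the DCC mutant and 14.6 FPKM in the 8rex deletion, against 15.4 FPKM in wild type, while its partner scc-2 is in a row of 4 genes at 245 FPKM, 269 FPKM and 220 FPKM in the same genotypes.

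wapl-1, which encodes the cohesin release factor, stood at 74.3 FPKM in the DCC mutant and 56.5 FPKM in the 8rex deletion, against 62 FPKM in wild type. evl-14, which encodes the PDS5 protein, stood at 33.8 FPKM in the DCC mutant and 33.3 FPKM in the 8rex deletion, against 35.2 FPKM in wild type, and was the single partner gene in a row of its own that was below wild type in the DCC mutant. sgo-1, the shugoshin gene, is in a shared row at 99.2 FPKM in the DCC mutant and 85.5 FPKM in the 8rex deletion, against 97.2 FPKM in wild type. tim-1, the Timeless homologue, stood at 25.3 FPKM in the DCC mutant and 20.9 FPKM in the 8rex deletion, against 20.2 FPKM in wild type. lab-1, which protects REC-8 in meiosis, was the partner with the largest difference in the 8rex deletion, at 8.78 FPKM in the DCC mutant and 7.64 FPKM in the 8rex deletion, against 4.08 FPKM in wild type (p = 0.56975 for the 8rex deletion in the authors' deposited table).

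The SMC5/6 complex, a relative of condensin and cohesin that acts in DNA repair, was represented by 3 genes. All were above wild type in the DCC mutant, as were 48% of all rows kept. smc-5 stood at 32.8 FPKM in the DCC mutant and 24.6 FPKM in the 8rex deletion, against 22.6 FPKM in wild type. smc-6 stood at 25.3 FPKM in the DCC mutant and 19.5 FPKM in the 8rex deletion, against 21 FPKM in wild type, and nse-1 at 9.36 FPKM, 7.02 FPKM and 6.63 FPKM in the same genotypes. Their median difference was 0.44 in the DCC mutant and 0.07 in the 8rex deletion, and none had a p under 0.05 in the authors' deposited table.

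Lists of dividing and early cells also had higher values in the DCC mutant. For comparison, 52.4% of rows kept with a single gene that is coding were above 0 there. A p under 0.05 in the authors' deposited table, in either direction, was given for 2.07% of the 9509 tested rows. In the DCC mutant, 27 of 28 rows of a single coding gene from the cell-cycle and replication list, which cover 26 genes, were above wild type (median 0.56), and 2 rows, those of pcn-1 and cyb-2.2, had a p under 0.05 in the authors' deposited table. The highest differences were those of the cyclin B genes cyb-2.1 (1.27) and cyb-2.2 (1.25), and the lowest those of a row of the origin recognition gene orc-3 (-1.19) and of the cyclin D gene cyd-1 (0.13). orc-3 has 2 rows: the low one stood at 2.91 FPKM in the DCC mutant and 14.5 FPKM in the 8rex deletion, against 7.94 FPKM in wild type, and the other, with a difference of 0.56, at 24.6 FPKM in the DCC mutant and 16.1 FPKM in the 8rex deletion, against 16.3 FPKM in wild type. Of 23 chromosome segregation genes 20 were above wild type (median 0.34), and rod-1, a kinetochore gene, was the single gene with such a p (0.04605 in the authors' deposited table), with 15.5 FPKM in the DCC mutant and 8.24 FPKM in the 8rex deletion, against 7.8 FPKM in wild type. Of 18 maternal genes 16 were above wild type (median 1.08), with 7 higher at a p under 0.05 in the authors' deposited table; their summed level was 1316 FPKM in the DCC mutant and 901 FPKM in the 8rex deletion, against 828 FPKM in wild type. The highest were mex-1 (1.69) and mex-5 (1.55), which encode RNA-binding proteins of the early embryo, and the lowest skn-1 and mbk-2 (-0.06 each). Meiotic axis and synapsis genes, the setting in which rec-8 works, were above wild type at 10 of 11 rows (median 0.85), against 0.36 for rec-8 itself. The 20 rows of 19 differentiation genes of muscle, neurons, epidermis and gut were split 11 above and 9 below (median 0.02). Of these rows 4 are X-linked, and all were above wild type: myo-2 (1.34), unc-27 (0.51), mlc-1 (0.50) and tni-1 (0.38). Only the row of the pharyngeal myosin gene myo-2 had a p under 0.05 in the authors' deposited table. The list had a summed level of 6634 FPKM in the DCC mutant and 7695 FPKM in the 8rex deletion, against 7605 FPKM in wild type. Most of that sum is the single gene sqt-3, at 3347 FPKM, 4604 FPKM and 4637 FPKM in the same order, so the sum does not describe the list. None of the genes on the maternal and differentiation lists was listed at 0 in any genotype. The median of the members, 0.27 (0.40 on rows of a single gene), was smaller than those of the cell-cycle (0.56), meiotic (0.85) and maternal (1.08) lists, and the part that embryo stage has in the members' values was not tested.

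**Figure D5:**
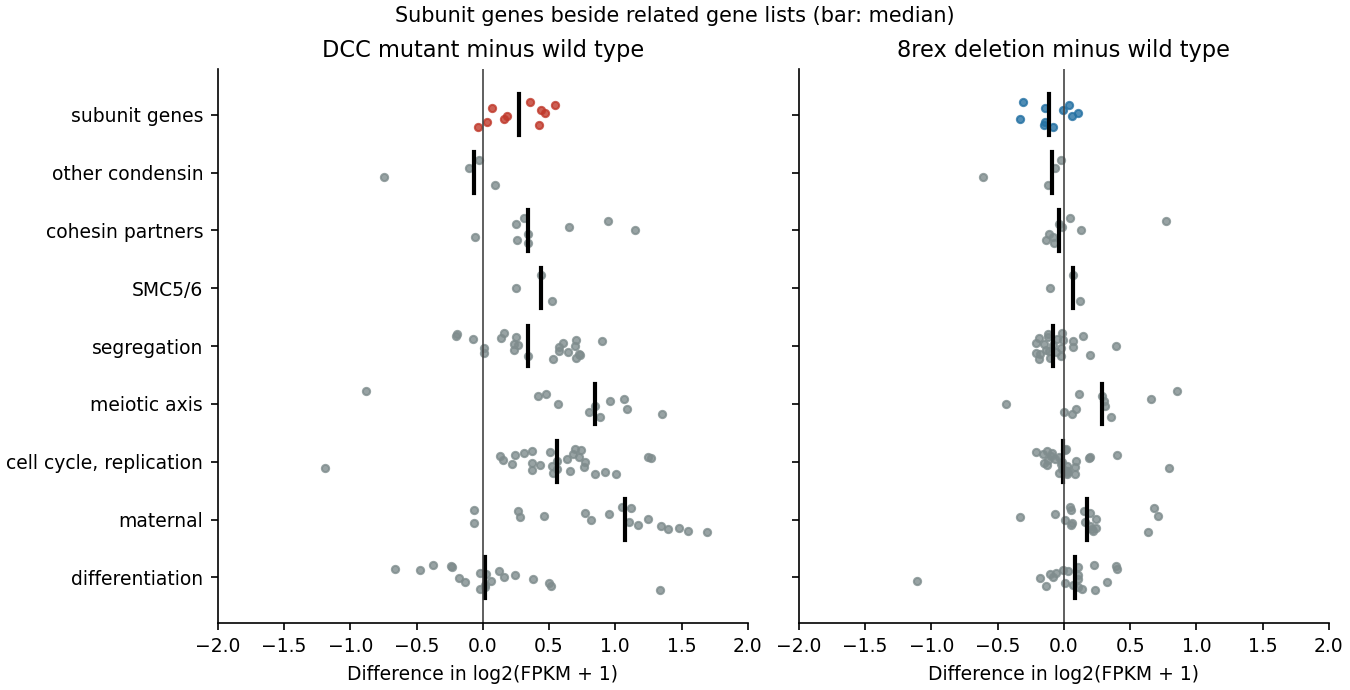
Difference from wild type in log2(FPKM + 1) of the subunit genes (coloured) and of related gene lists (grey, rows with a single coding gene), in the DCC mutant (left) and the 8rex deletion (right); each point is a row and each black bar the median of its list. In the DCC mutant the medians are 0.27 for the subunit genes, -0.07 for other condensin genes, 0.56 for cell-cycle and replication genes and 1.08 for maternal genes, whereas in the 8rex deletion they are -0.11, -0.09, -0.01 and 0.18. The subunit genes include shared rows, and on rows of a single gene their medians are 0.40 in the DCC mutant and -0.075 in the 8rex deletion.

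In the 8rex deletion the same lists had medians of -0.01 for cell cycle and replication (14 above and 14 below), -0.08 for segregation (5 above and 18 below), 0.29 for the meiotic axis (10 above and 1 below), 0.18 for maternal genes (16 above and 2 below) and 0.09 for differentiation (13 above and 7 below). The members had 3 above and 7 below, where 50.5% of all rows kept were below. Their cohesin rows were split 3 and 3 (median 0.02), and their 4 condensin rows, 3 of them shared, were all below (median -0.15). The median of the members as a whole was thus below 0 and those of the maternal and meiotic lists above it. No gene of these lists at a row with a single coding gene had a p under 0.05 in this comparison of the authors' deposited table. Among the shared rows 1 did, that of the X-linked gut transcription factor gene elt-2 with another coding gene, at 40.8 FPKM in the DCC mutant and 202 FPKM in the 8rex deletion, against 35.3 FPKM in wild type (p = 5e-05 for the 8rex deletion in the authors' deposited table).

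For each member, the genes of the lists with the most similar pair of differences from wild type were sought among 113 genes (116 rows, the nearest row standing for a gene with several), by the distance in log2 units over the 2 comparisons. Nearest to smc-4 were ric-4 and evl-14 (distance 0.025 each). Nearest to hcp-6 was rnr-2 (0.03), to kle-2 unc-119 (0.04), to capg-2 egg-1 (0.12) and to smc-1 egl-3 (0.06). Nearest to smc-3 was cosa-1 (0.01). The gene nearest to scc-1 was orc-2 (0.06), to scc-3 mix-1 (0.03), to coh-1 rnr-1 (0.03) and to rec-8 egg-1 (0.08). The likeness rests on 3 values per gene, 1 of them common to both differences. The added constant shrinks the differences of low genes such as egg-1 (mean 3.58 FPKM) and cosa-1 (mean 4.05 FPKM), which bears on their places. Distances without that constant were not computed.

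Genes next to the members but in other rows had values of their own. spd-5, a centrosome gene on the opposite strand, shares 39 exon bases with hcp-6 (0.736% of its exon bases) and stood at 45.2 FPKM in the DCC mutant and 31 FPKM in the 8rex deletion, against 32.5 FPKM in wild type, values close to those of the hcp-6 row. rpn-5, a proteasome gene 293 bp from scc-1 on the other strand, stood at 55.5 FPKM in the DCC mutant and 40.4 FPKM in the 8rex deletion, against 33 FPKM in wild type. mib-1, an E3 ligase gene 227 bp from smc-3, went the other way from smc-3, at 22 FPKM in the DCC mutant and 44.9 FPKM in the 8rex deletion, against 37.5 FPKM in wild type. On X, sox-2, 1456 bp from coh-1, stood at 185 FPKM in the DCC mutant and 129 FPKM in the 8rex deletion, against 150 FPKM in wild type. Larger overlaps than that of spd-5 came without such closeness of values. On the opposite strand, gsto-1 shares 52 exon bases with kle-2 (1.89%) and bnc-1 shares 89 with capg-2 (2.79%). gsto-1 was listed at 0 for the DCC mutant, with 1.44 FPKM for the 8rex deletion and 1.3 FPKM for wild type. bnc-1 had 0.229 FPKM for the 8rex deletion and was listed at 0 for the other genotypes. Without strand, reads from overlapping genes are not separable. The use of strand is not stated in the labels or the file headers.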

How the data were processed

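One table of embryo RNA-seq was used. Per the file headers, the authors deposited FPKM as 1 value per genotype and locus, a log2 fold change for either mutant relative to wild type, and a p-value and q-value; the test is not named there. For the members the deposited log2 fold change equalled the log2 ratio of the FPKM within 4.3e-06. Per the submitters' processing notes, cutadapt 1.2.1, TopHat2 2.1.1, Cufflinks 2.2.1 and build ce11 were used; those notes give no roles or settings.

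Of 40669 rows, 242 without a gene identifier were left out. Symbols and coordinates came from Ensembl release 115 of the same assembly, in which 99.5% of identifiers were found. Rows with a mean of at least 1 FPKM were kept, and 10.7% of these hold several genes. A p of 1 was taken as not tested. The planned fallback for a table without replicate values was followed: no test was made, and lists were described by counts and medians of log2(FPKM + 1), with 1.5-fold as the size counted. The difference step was tested on simulated data.

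All 10 members are named, with every gene on the condensin, cohesin-partner and SMC5/6 lists, the 2 highest and 2 lowest differences of some other lists, and the nearest list gene by distance. The genes named for a p under 0.05 in the authors' deposited table and those next to the members were chosen after their values were seen. cdc-45 was not matched. The members and lists were chosen with earlier results of these data known. Alternatives were other pseudocounts, scalings, filters and row choices; leaving out coh-1 and the comparison between the mutants were added after seeing the data. Python 3.11.15, numpy 2.4.6, pandas 2.3.3 and matplotlib 3.10.9 were used.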

Additional observations from a re-analysis of the deposited data

How the results depend on the processing

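Each median and count over the members was recomputed with a pseudocount of 0.1 FPKM or none, with 2 other scalings, with other filters, on rows of a single gene and without coh-1. A median that moved by less than 0.1, or a count within 1.5 times, was taken as unchanged, and 66 of 72 such values were. The other filters could not move any value, because every member had a mean of at least 12.2 FPKM. Their values are counted among the unchanged ones. On rows of a single gene the DCC mutant median against wild type was 0.40 in place of 0.27, and the DCC mutant was above the 8rex deletion at 6 of 6 rows in place of 10 of 10, fewer because fewer rows remain. Scaled by the median ratio over autosomal rows, 1 member in place of 0 was 1.5-fold higher in the DCC mutant than in wild type. Past 1.5-fold of the 8rex deletion (39.6% of all rows kept, with a pseudocount of 1) there were 2 members in place of 1 with a pseudocount of 0.1, 2 with none and 2 with that scaling. Over all settings the median ran from 0.18 to 0.40 for the DCC mutant and from -0.14 to -0.08 for the 8rex deletion, both against wild type. Of 120 values for individual members, shared rows included, 2 changed sign, and the largest move was 0.06. The 2 were the shared row of smc-4 in the DCC mutant and scc-1 in the 8rex deletion. No paired analysis was possible because the table holds a single combined value per genotype, and no replicate could be left out for the same reason. Depth per library is unknown, so no counting interval can be given.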

Other observations

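Within the span of coh-1 the annotation places 10 ncRNA genes, none of which shares an exon base with coh-1. Of their rows 7 were listed at 0 in all genotypes. K08A8.12 was at 6.88 FPKM in the DCC mutant and listed at 0 in the 8rex deletion and wild type, and K08A8.30 was at 22.9 FPKM in the DCC mutant and listed at 0 in both others. K08A8.25 was at 7.1 FPKM in the DCC mutant, listed at 0 in the 8rex deletion, and at 4.52 FPKM in wild type. An exact 0 in this table is given only as listed, as 106 rows were listed at 0 in wild type while both mutants had at least 10 FPKM.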
